A study of Arabidopsis thaliana with 12 samples.

Results

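The plastid genome of Arabidopsis thaliana carries 5 genes for subunits of photosystem I, psaA, psaB, psaC, psaI and psaJ, and 2 genes for factors that assemble it, ycf3 and ycf4. These 7 genes, psaA (ATCG00350), psaB (ATCG00340), psaC (ATCG01060), psaI (ATCG00510), psaJ (ATCG00630), ycf3 (ATCG00360) and ycf4 (ATCG00520), were taken by their identifiers from the 28775 genes counted in the study, of which 84 were plastid protein-coding genes. Ribosome-protected fragments (RPF, the short pieces of mRNA that a ribosome shields from RNase) and total RNA were each counted per gene in 6 libraries. Every library came from whole rosettes of the wild type Col-0 grown on soil in short days and kept, from 3 weeks of age, in dim light for 10 days (8 µmol photons per square metre and second). Low-light (LL) plants stayed there, and high-light (HL) plants were put under 800 µmol photons per square metre and second for 10 min before all were harvested at midday. Each of the 4 groups (RPF or total RNA, in LL or HL) held 3 libraries that the labels describe as biological replicates, and no group carried a mutation or transgene according to the labels. The comparisons ask what ribosome occupancy and mRNA level of the photosystem I genes did within the first 10 min of high light.

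Photosystem I is the thylakoid complex that takes electrons from plastocyanin and passes them, with light energy, to ferredoxin. PsaA and PsaB are large, related membrane proteins that pair to form the core and hold the reaction-centre chlorophylls and most of the electron carriers. PsaC is a small protein on the stromal side that binds the terminal iron-sulfur clusters, and PsaI and PsaJ are very small membrane subunits at the edge of the core. Ycf3 and Ycf4 are not part of the finished complex but help to build it. Ycf3 is needed for photosystem I to accumulate in tobacco and in the green alga Chlamydomonas, while Ycf4 is essential in Chlamydomonas and only promotes assembly in tobacco. The remaining subunits and the antenna proteins are encoded in the nucleus and imported.

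The 7 genes stand at 4 places in the plastid genome (TAIR10 positions from the count files). The first place, on the minus strand, holds psaB at 37375 to 39579 and psaA at 39605 to 41857, only 25 bases apart and in the same orientation as rps14, which lies 134 bases from psaB. The ycf3 gene follows on the same strand at 42584 to 43751, 726 bases from psaA. On the plus strand, psaI at 59247 to 59360 and ycf4 at 59772 to 60326 lie between accD and cemA, and psaJ lies at 66929 to 67063 beside rpl33. The psaC gene, on the minus strand at 117318 to 117563, sits between ndhD and ndhE among genes of the NDH complex. The counted spans were 2253 bases for psaA, 2205 for psaB, 555 for ycf4, 246 for psaC, 135 for psaJ and 114 for psaI. For ycf3 the files counted 1168 bases, while the RefSeq annotation of TAIR10.1 gives the gene 2008 bases. Both share the lower coordinate, which is the 3′ end of this minus-strand gene, so the values leave out its 5′ part. No other gene in the files overlaps any of the 7 spans.

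Counts over protein-coding genes summed to between 1165372 and 2133215 in the RPF libraries and between 2442667 and 16093763 in the total RNA libraries. Of these the 7 genes together had 99188 to 211307 in RPF and 124324 to 757870 in total RNA, most of them on psaA and psaB. For psaA and psaB counting error was small beside the spread between replicates. The smallest count of a single gene was 378, for psaI in RPF HL number 3. The part of counting error in the spread of the smaller genes was not tested. The RPF libraries of number 1 stood apart in that rRNA genes took 82.7% of all counts in LL and 84.6% in HL, against 4.42 to 8.66% in the other 4 RPF libraries. The total RNA HL library of number 3 had the lowest share of plastid genes among protein-coding counts of the total RNA libraries, 55.6% against 61.5 to 72.6% in the other 5. The total RNA LL library of number 1 had by far the fewest protein-coding counts of its kind, 2442667, and the next lowest had 6305419. The 4 green leaf markers (RBCS1A, CAB1, GLDP1 and CA1) summed to 7098 to 15777 CPM (counts scaled to a library of a fixed size) in RPF and 10785 to 13379 CPM in total RNA. The 7 root, flower and seed markers never exceeded a sum of 0.856 CPM in any library, and 6 of them had no RPF count at all.

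In low light, RPF per kilobase was highest on the 2 core genes. This level is not divided by the amount of mRNA, so it is not a density of ribosomes per transcript. Per kilobase of gene span, RPF reached 23127 ± 2323 CPM per kb on psaB and 20718 ± 1960 CPM per kb on psaA (SD, n = 3), the fifth and seventh highest of the 84 plastid protein-coding genes. The next subunits were several times lower, with 4926 ± 1207 CPM per kb on psaC, 4422 ± 926 on psaJ and 3816 ± 215 on psaI. The assembly factors came last, with 2873 ± 617 CPM per kb on ycf4 and 719 ± 185 on ycf3. The libraries of neighbours in this order overlapped between psaB and psaA, psaC and psaJ, psaJ and psaI, and psaI and ycf4. They did not overlap between psaA and psaC, nor between ycf4 and ycf3. In HL the order was the same and so were the gaps, from 22459 ± 2617 CPM per kb on psaB down to 598 ± 183 on ycf3. These levels divide by the whole counted span, introns included, and the ycf3 span also lacks its 5′ part. The low ycf3 level and its gap to ycf4 are therefore not densities over coding sequence.

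The order in total RNA was different and far less fixed. In LL, psaJ had the highest mean, 11043 ± 9980 CPM per kb, followed by psaA at 9296 ± 2342, psaB at 9073 ± 2680 and psaC at 7005 ± 1634 (SD, n = 3), and the libraries of these neighbours overlapped. The level of psaJ was 22252 CPM per kb in the library of number 1, 7751 in number 2 and 3124 in number 3. The spans of psaJ, psaI and psaC are only 135, 114 and 246 bases. How such short spans affect levels per kb in either kind of library was not tested. The genes psaI at 2255 ± 1646, ycf4 at 802 ± 351 and ycf3 at 486 ± 151 CPM per kb were lower. Replicates of total RNA spread much more than those of RPF for the core genes: the coefficient of variation of psaA was 9.46% in RPF LL and 8.43% in RPF HL, against 25.2% in total RNA LL and 58.2% in total RNA HL.

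**Figure D1:**
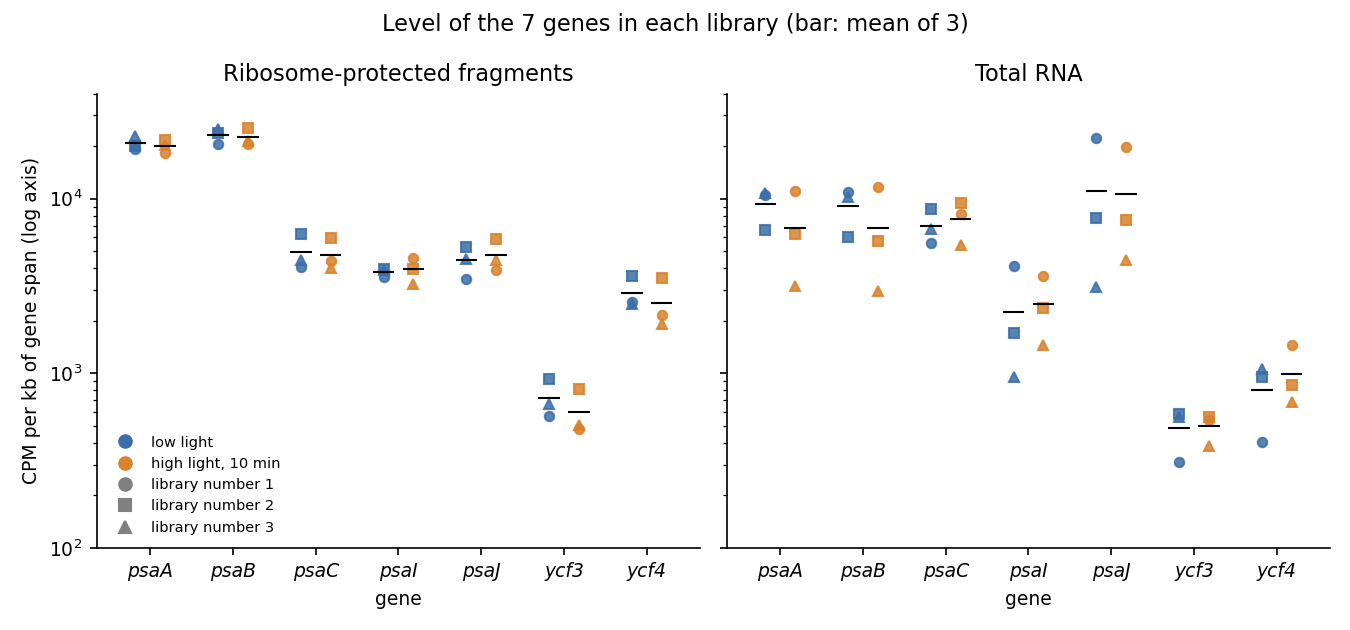
Level of each gene in CPM per kb of gene span (log axis) in each of the 12 libraries, RPF on the left and total RNA on the right, with LL in blue, HL in orange, the library number as the marker and the mean of 3 as a bar. The psaA and psaB points form tight groups between 18317 and 25440 CPM per kb in RPF and spread from 2964 to 11659 in total RNA.

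Set against its own transcript, the core pair carried more RPF than psaC did. The log2 ratio of RPF CPM to total RNA CPM was taken within each number and light, with 1 CPM added to both; the kinds of library were prepared, aligned and counted with different strand settings, so the ratio ranks genes and its zero has no meaning of its own. In LL the ratio of psaB was 0.90, 1.99 and 1.28 in numbers 1, 2 and 3, and that of psaA was 0.87, 1.61 and 1.08. The ratio of psaC was -0.46, -0.48 and -0.59 in the same numbers. It lay below those of psaA and psaB in 6 of 6 combinations of number and light, and was the steadiest of the 7 genes, ranging from -0.88 to -0.44.

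The other ratios were less steady. For psaJ the ratio ran from -2.68 in LL number 1 to 0.53 in LL number 3, with means of -0.90 ± 1.64 in LL and -0.90 ± 1.26 in HL (SD, n = 3). For psaI it ran from -0.20 to 2.03. Of the assembly factors, ycf4 had a mean of 1.94 in LL and 1.36 in HL, the highest of the 7 genes in LL, and ycf3 had 0.59 in LL and 0.25 in HL. The median of 83 plastid protein-coding genes was 1.12 in LL and 0.83 in HL, so psaC and psaJ stood well under it, at ranks 73 and 75 of 83 in LL, and psaA stood close to it, at rank 41. Values at the same number and light share libraries across genes, so the 7 genes are not independent of each other.

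**Figure D2:**
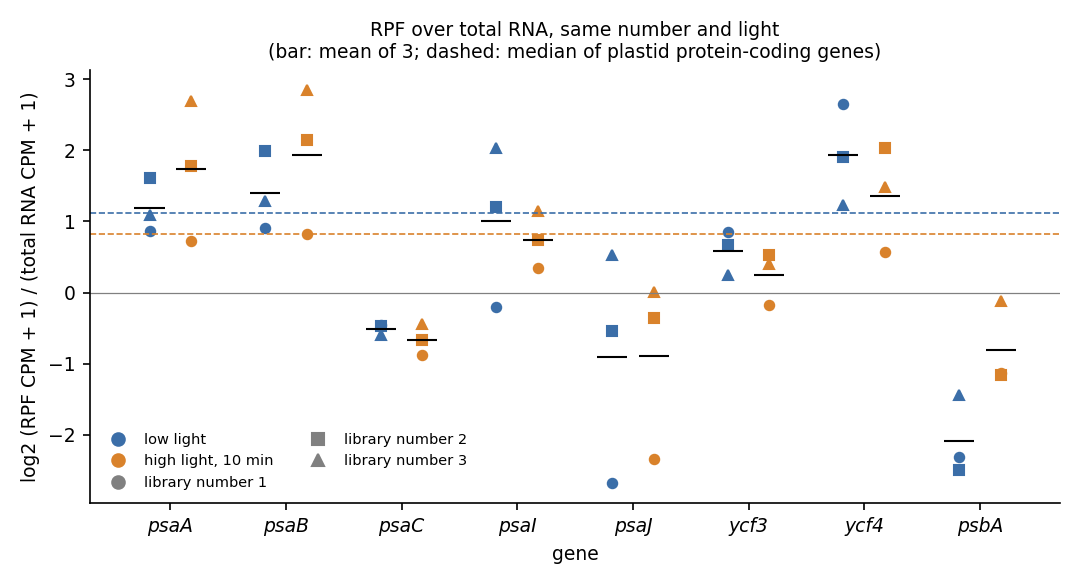
Log2 ratio of RPF CPM to total RNA CPM (1 CPM added to both) for the 7 genes and psbA, with 1 point per library number, LL in blue, HL in orange, the mean of 3 as a bar and the median of 83 plastid protein-coding genes as dashed lines. All 6 psaC points lie below all psaA and psaB points, and psaJ spans from -2.68 to 0.53.

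PsaA and PsaB are needed in equal numbers, and their genes took nearly equal counts. In RPF, psaA held 48.8, 46.3 and 48.4% of the summed psaA and psaB counts in LL numbers 1, 2 and 3, and 47.7, 46.5 and 49.3% in HL. The groups overlapped, and their means were 47.8 ± 1.34% in LL and 47.9 ± 1.41% in HL (SD, n = 3; exact two-sided permutation p = 1; the smallest p that 3 against 3 can give is 0.1). In total RNA the share was 51.4 ± 1.77% in LL and 51.3 ± 1.94% in HL (n = 3, exact two-sided permutation p = 0.9). The share in RPF minus that in total RNA was -3.58 percentage points in LL, where the libraries did not overlap (exact permutation p = 0.1), and -3.49 points in HL, where they did (exact permutation p = 0.2); both tests ignore the numbers. Within numbers 1, 2 and 3 the difference was -0.67, -6.61 and -3.47 points in LL and -1.48, -6.31 and -2.67 points in HL. It was negative in 6 of 6 pairs, most so in number 2 and least in number 1. Together the 2 core genes made up 95.4 ± 0.89% of the RPF counts of the 7 genes in LL and 95.6 ± 0.67% in HL, and 89.6 ± 3.6% and 85.3 ± 3.1% of their total RNA counts (SD, n = 3).

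After 10 min of high light, RPF of the photosystem I core pair differed from low light by less than the spread between replicates. RPF on psaA was 43070, 45363 and 51603 CPM in LL numbers 1, 2 and 3, and 41269, 48842 and 45969 CPM in HL. RPF on psaB was 45244, 52673 and 55067 CPM in LL, and 45287, 56096 and 47184 CPM in HL. For both genes the groups overlapped, and HL was higher than LL in some numbers and lower in others. The log2 change was -0.041 ± 0.25 for psaA and -0.042 ± 0.25 for psaB (SE; edgeR quasi-likelihood test with Benjamini-Hochberg adjustment, adjusted p = 1.00 for both). With the library number as a block, which pairs each LL library with the HL library that carries its number, the 95% confidence interval narrowed to -0.23 to 0.15 for psaA and to -0.23 to 0.14 for psaB.

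For the smaller subunits, too, the RPF difference was within the spread between replicates. The level of psaC was 993, 1550 and 1093 CPM in LL numbers 1, 2 and 3, and 1084, 1456 and 982 CPM in HL, and its log2 change was -0.045 ± 0.28 (SE). The genes psaI and psaJ had log2 changes of 0.045 ± 0.24 and 0.10 ± 0.27, and their levels lay between 369 and 524 CPM for psaI and between 467 and 792 CPM for psaJ over the 6 libraries. The groups overlapped for all 3 genes, and each had an adjusted p of 1.00 by edgeR.

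The assembly factors had the lowest estimates of the 7 genes in RPF. RPF on ycf3 was 661, 1080 and 780 CPM in LL numbers 1, 2 and 3, and 558, 944 and 593 CPM in HL. RPF on ycf4 was 1413, 1990 and 1381 CPM in LL, and 1195, 1945 and 1066 CPM in HL. The groups overlapped, and within each number HL was below LL for both genes, in 3 of 3 pairs. The median log2 difference over 83 plastid genes was also below 0 in each number, at -0.095, -0.0010 and -0.31. The log2 change was -0.27 ± 0.30 for ycf3 and -0.18 ± 0.30 for ycf4 (SE, adjusted p = 1.00 by edgeR). With the block it was -0.28 ± 0.12 for ycf3 (unadjusted p = 0.028, adjusted p = 0.395) and -0.21 ± 0.12 for ycf4 (adjusted p = 0.555), so neither passed the threshold of 0.05. Their ranks from the lowest among the 72 plastid genes tested were 9 and 22, and the median of the other 65 plastid genes was -0.12.

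Of the 7 genes, 0 passed in RPF by edgeR, against 24 of 10761 genes tested (0.223%), and 0 passed with the block, against 198 genes (1.84%). At an unadjusted p under 0.05 the count of the 7 was 0 without the block, where 3.35% of all tested genes were under it, and 1, ycf3, with the block, where 10.3% were, and DESeq2 and limma-voom also called 0 of them. The direction of the small core values depended on the scaling. With TMM factors from plastid genes other than psbA, the median of all genes moved from -0.0027 to 0.15 on the log2 scale, and psaA, psaB and psaC took positive signs (0.12, 0.12 and 0.13). Relative to that median they stayed just under it, at -0.028, -0.030 and -0.017, with ycf3 at -0.25 and ycf4 at -0.19. Without the number 1 libraries, psaI changed sign to -0.13 and the other 6 genes kept theirs.

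**Figure D3:**
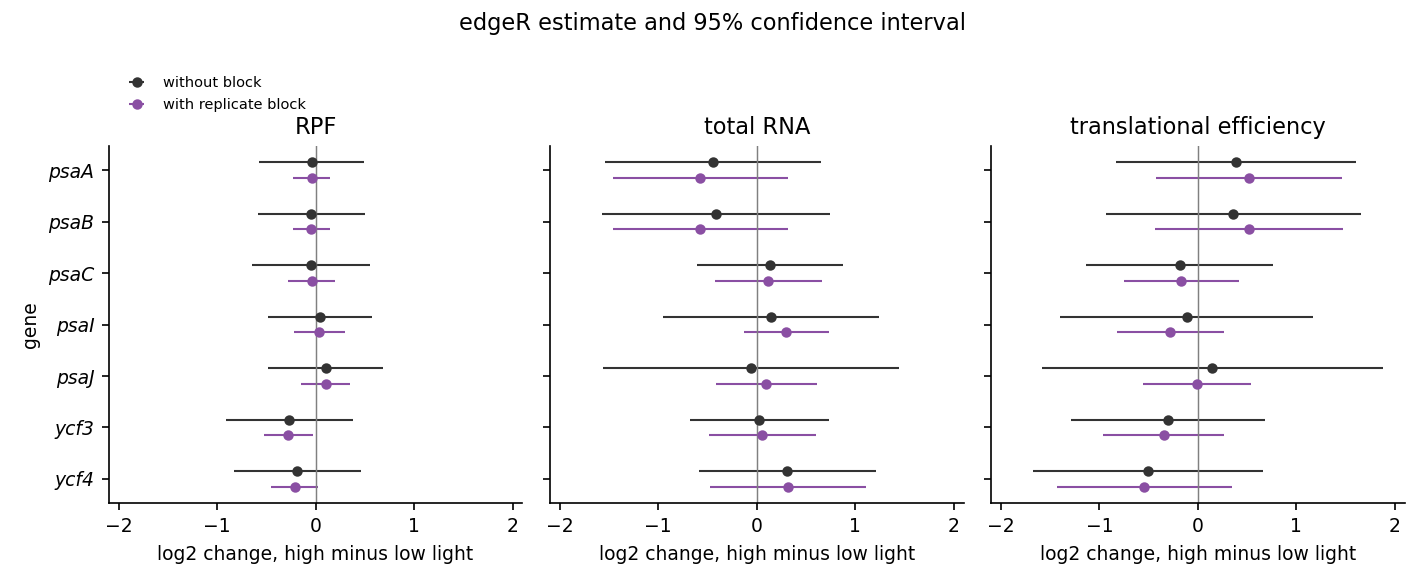
Log2 change from low to high light (x axis) for each gene in RPF, total RNA and translational efficiency, as the edgeR estimate with its 95% confidence interval, without the replicate block in black and with it in purple. In RPF the block narrows the intervals around 0, with ycf3 at -0.28 as the lowest estimate, while the psaA and psaB intervals in total RNA stay wide.

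In total RNA the core pair had the lowest estimates of all 81 plastid genes tested, and the size of these estimates rested on a single library. Total RNA of psaA was 23632, 14863 and 24336 CPM in LL numbers 1, 2 and 3, and 24854, 14185 and 7085 CPM in HL. Total RNA of psaB was 24171, 13241 and 22603 CPM in LL, and 25707, 12651 and 6536 CPM in HL. The HL library of number 3 was the lowest of the 6 for both genes, while numbers 1 and 2 had almost the same level in both lights. The log2 change was -0.45 ± 0.50 for psaA and -0.42 ± 0.52 for psaB (SE, adjusted p = 1.00 by edgeR), and -0.10 ± 0.40 and -0.064 ± 0.43 without that library. Within numbers, the log2 difference of psaA was 0.073, -0.067 and -1.78, and that of psaB was 0.089, -0.066 and -1.79. In bulk tissue, fewer cells of a type and less RNA per cell cannot be told apart.

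The plastid transcripts as a whole also shifted differently from number to number. The median log2 difference over 81 plastid genes was 1.01 in number 1, -0.029 in number 2 and -0.58 in number 3. Against this, psaA and psaB ranked 10 and 11 from the lowest in number 1 and 26 and 28 in number 2. They were second and lowest in number 3, where 15 of the 81 genes were below -1. Their low rank among plastid genes was thus not confined to number 3. The HL library of number 3 was the one with the lowest plastid share, and the part of that shift in the psaA and psaB values was not tested. RPF of number 3 showed no such drop, with -0.17 for psaA and -0.22 for psaB. The LL library of number 1 was the total RNA library with the fewest counts, and its part in the number 1 median was not tested.

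**Figure D4:**
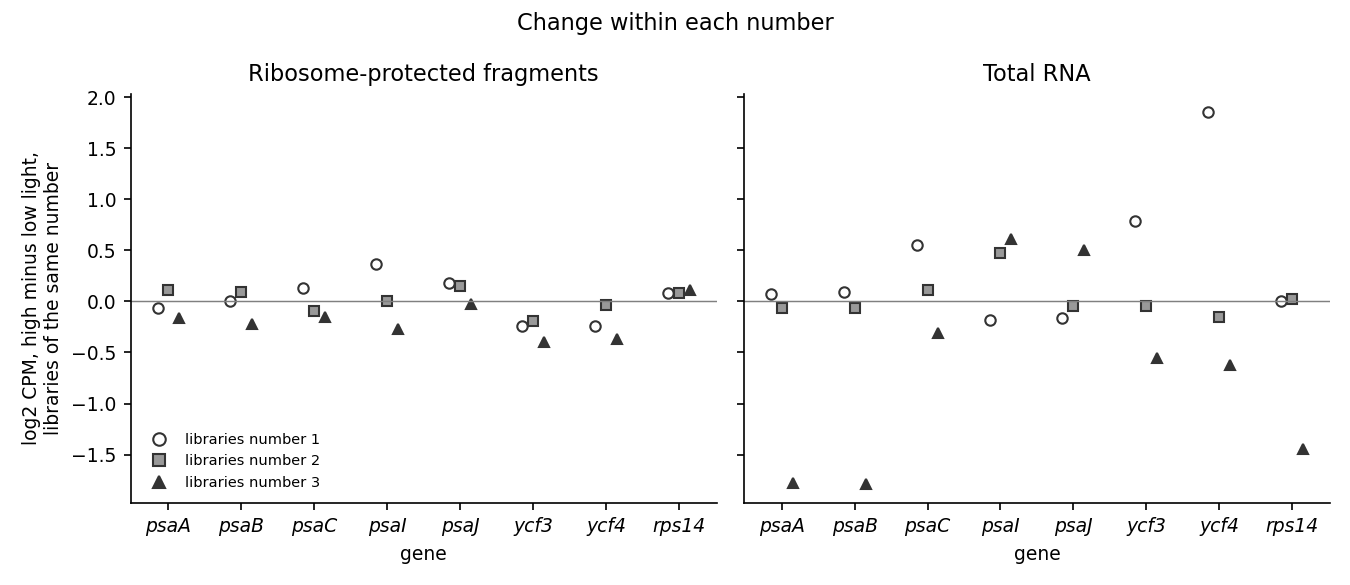
Log2 CPM in high light minus low light (y axis) within each library number, for the 7 genes and the neighbouring gene rps14, in RPF on the left and total RNA on the right. In total RNA the number 3 points of psaA, psaB and rps14 lie between -1.79 and -1.44, apart from numbers 1 and 2 near 0, and in RPF all points lie between -0.40 and 0.37.

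The other 5 genes showed no shared direction in total RNA. The level of psaC was 1363, 2157 and 1650 CPM in LL numbers 1, 2 and 3, and 2002, 2323 and 1332 CPM in HL. The level of ycf4 was 223, 528 and 585 CPM in LL, and 806, 474 and 379 CPM in HL, so that it was higher in HL in number 1 and lower in numbers 2 and 3. For ycf4 the number 1 libraries held both extremes. The lowest value came from LL number 1, the total RNA library with the fewest counts, and the highest from HL number 1. The log2 changes were 0.13 ± 0.34 for psaC, 0.15 ± 0.50 for psaI, -0.058 ± 0.68 for psaJ, 0.026 ± 0.32 for ycf3 and 0.31 ± 0.41 for ycf4 (SE, adjusted p = 1.00 for each by edgeR). Without the number 1 libraries the signs of psaC, psaJ, ycf3 and ycf4 turned, to -0.052, 0.14, -0.27 and -0.38. With factors from plastid genes other than psbA, psaC, psaI and ycf3 turned to -0.0049, -0.26 and -0.068, and the estimates of psaA, psaB and psaJ were -0.77 ± 0.41, -0.78 ± 0.42 and -0.59 ± 0.48 (SE, edgeR adjusted p = 1.00). The median of all genes was then -0.092, and relative to it psaA was at -0.68, psaB at -0.69 and psaJ at -0.49. Of the 7 genes, 0 passed by edgeR, against 37 of 15705 genes tested (0.236%), and 0 passed with the block, against 130 genes (0.828%). At an unadjusted p under 0.05 the count was 0 without and with the block (2.36% and 7.19% of all tested genes), and DESeq2 and limma-voom called 0 of the 7.

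Translational efficiency, the change of RPF relative to that of total RNA between LL and HL, was tested in a single model of the 12 libraries through its interaction term. Its estimates were highest for the core genes, 0.39 ± 0.57 for psaA and 0.36 ± 0.61 for psaB, and lowest for the assembly factors, -0.30 ± 0.46 for ycf3 and -0.51 ± 0.55 for ycf4 (log2, SE, edgeR adjusted p = 1.00 for each). The genes psaC at -0.19 ± 0.45, psaI at -0.12 ± 0.61 and psaJ at 0.15 ± 0.82 lay between them. The core values rested on the total RNA HL library of number 3: without it they were 0.044 ± 0.41 for psaA and 0.0032 ± 0.45 for psaB. The ycf4 value rested on the number 1 libraries, without which it was 0.21 ± 0.56. Of the 7 genes, 0 passed by edgeR, as did 0 of all 12793 genes tested (0%), without and with the block. At an unadjusted p under 0.05 edgeR listed 179 of the 12793 genes (1.399%), none of them among the 7. Without the block, DESeq2 and limma-voom called 0 genes. With the block DESeq2 called 4 of 12793 genes, and edgeR without a filter or block called 2 of 22669, again none of the 7. With factors from plastid genes other than psbA, the median of all genes moved from 0.021 to 0.45, and psaC, psaI and ycf3 took positive signs (0.29, 0.57 and 0.13). The core values under that scaling were 1.03 ± 0.54 for psaA and 1.02 ± 0.55 for psaB, and psaJ was at 0.90 ± 0.75 (SE, edgeR adjusted p = 0.907 for each). Relative to that median psaA was at 0.58, psaB at 0.57 and psaJ at 0.46, while psaC was at -0.16, psaI at 0.12 and ycf3 at -0.32.

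As a share of all plastid protein-coding RPF counts, the 7 genes went from 23.1, 21.4 and 23.1% in LL numbers 1, 2 and 3 to 15.3, 16.99 and 15.8% in HL. The groups did not overlap, and the means were 22.5 ± 0.99% and 16.0 ± 0.86% (SD, n = 3). The denominator moved at the same time: psbA, the gene for the photosystem II protein D1, had 22.1 ± 3.8% of these counts in LL and 42.1 ± 5.6% in HL. With psbA left out of the denominator, the 7 genes took 29.8, 26.1 and 31.1% in LL and 27.9, 26.4 and 29.1% in HL. These groups overlapped, with means of 29.0 ± 2.6% and 27.8 ± 1.35%. In total RNA the share was 7.001 ± 2.07% in LL and 4.88 ± 1.41% in HL, and 19.4 ± 3.0% and 15.7 ± 3.3% without psbA, with overlapping groups in both. These shares are descriptions and were not tested.

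**Figure D5:**
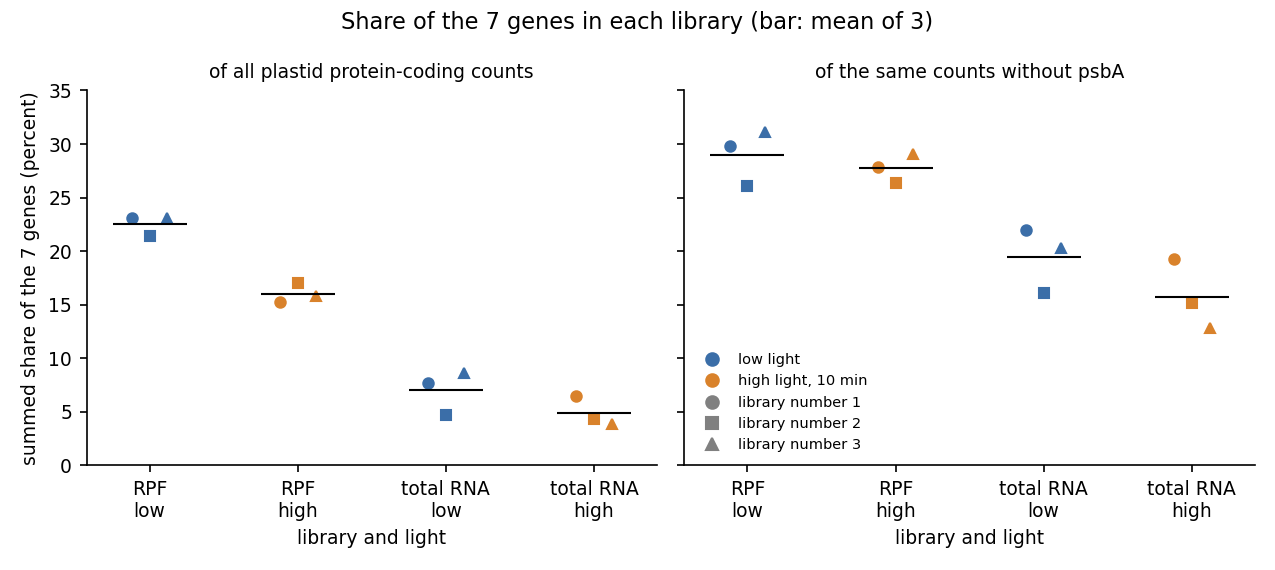
Summed share of the 7 genes, in percent, of all plastid protein-coding counts on the left and of the same counts without psbA on the right, for each library, with LL in blue, HL in orange and the mean of 3 as a bar. In RPF the HL libraries (15.3 to 16.99%) lie below the LL libraries (21.4 to 23.1%) on the left and overlap with them on the right.

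The genes whose profile over the 12 libraries was most like that of psaA were first of all psaB, and then rps14, the ribosomal protein gene next to psaB, psbC and BGLU44. Likeness was the root-mean-square difference of log2 CPM after each gene was centred within RPF and within total RNA. It was 0.077 between psaA and psaB, 0.23 for rps14, 0.26 for psbC, which encodes a photosystem II antenna protein, and 0.26 for BGLU44, against a median of 0.56 over 10722 genes. For psaB the closest other genes were psbC at 0.24, rps14 at 0.25 and psbD, which encodes the D2 protein, at 0.26. In total RNA of number 3 these plastid genes had log2 differences of -1.44 for rps14, -1.37 for psbC and -1.39 for psbD. They were picked for likeness over the same libraries, so a drop like that of psaA and psaB follows from the choice and is no separate result. The profile of psaC was unlike that of the core pair, at 0.50 from psaA and 0.53 from psaB. Its closest genes were AT5G14520 at 0.12, PAP18 at 0.13 and clpP at 0.14, and among the 7 genes it was closest to ycf3 at 0.17. These values are descriptions over 12 libraries that share their depth and number, and they carry no test.

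A list of 12 plastid genes from the same clusters and strands as the 7 was set beside them; it does not hold every neighbour, since petG and rps4 are not in it. In RPF 0 of 12 passed by edgeR, 1 had a positive estimate, and the median was -0.14, against -0.0027 over all genes. Of the 72 plastid genes tested 17 were positive, with a median of -0.12, close to that of the list. In total RNA 0 of 12 passed, 10 had positive estimates, and the median was 0.27. Of the 81 plastid genes tested 49 were positive there, with a median of 0.048. The smallest p in total RNA belonged to ndhE, the NDH complex gene next to psaC, with a log2 change of 1.21 ± 0.47 (SE, edgeR adjusted p = 1.00), followed by cemA at 0.66 ± 0.42 and ndhG at 0.38 ± 0.33. In translational efficiency 0 of 12 passed, 1 was positive and the median was -0.43, with ndhE at -1.28 ± 0.61, cemA at -0.85 ± 0.55 and ndhG at -0.57 ± 0.48. Of the 79 plastid genes tested 20 were positive, with a median of -0.19. In RPF the smallest p belonged to ndhH at -0.25 ± 0.34, accD at -0.23 ± 0.32 and cemA at -0.18 ± 0.28. At an unadjusted p under 0.05 edgeR listed 0 of 12 in RPF, 0 in translational efficiency and 1 (ndhE) in total RNA, where 2.36% of all tested genes were listed. By level, rps14 was the highest of the 12 in both kinds of library, at 16620 CPM per kb in RPF and 10443 in total RNA (means over LL and HL).

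Nuclear genes supply the rest of photosystem I. Of 12 genes for its other subunits, 0 passed in RPF, total RNA or translational efficiency by edgeR, and 0 had an unadjusted p under 0.05. In RPF 10 of 12 estimates were positive with a median of 0.11, and over all genes 49.6% were positive. The smallest p in RPF belonged to PSAE2 at 0.37 ± 0.30, PSAH2 at 0.23 ± 0.31 and PSAF at 0.16 ± 0.27 (log2, SE, edgeR adjusted p = 1.00 for each), where PsaF docks plastocyanin. In total RNA 4 of 12 were positive, against 48.9% of all genes. The smallest p there belonged to 3 genes with negative estimates, PSAD2 at -0.37 ± 0.28, PSAF at -0.33 ± 0.29 and PSAG at -0.21 ± 0.26. In translational efficiency 11 of 12 were positive with a median of 0.20, against 52.3% of all genes. PSAF was at 0.47 ± 0.41, PSAG at 0.30 ± 0.39 and PSAE2 at 0.25 ± 0.41. Because the 12 genes share libraries, their signs in each comparison are not independent of each other. Levels were far below the plastid core genes: as a mean over LL and HL, the highest was PSAF in RPF at 1470 CPM per kb and PSAO in total RNA at 763, although in RPF LL alone PSAG, at 1401, was slightly above PSAF, at 1391.

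Of 6 antenna genes of photosystem I, 0 passed in any comparison without the block. In RPF 6 of 6 were positive with a median of 0.20, and 1 of 6 was positive in total RNA. Over all genes 49.6% were positive in RPF and 48.9% in total RNA. These genes share libraries, so their signs are not independent. At an unadjusted p under 0.05 edgeR listed 0 of 6 in each comparison. LHCA4 had the highest mean level over LL and HL in both kinds of library (1608 CPM per kb in RPF), although in RPF LL alone LHCA3, at 1328 CPM per kb, was above LHCA4, at 1278. LHCA4 had a log2 change of 0.60 ± 0.31 in RPF (SE, edgeR adjusted p = 1.00), followed by LHCA1 at 0.30 ± 0.38 and LHCA3 at 0.22 ± 0.32. With the block LHCA4 rose in RPF, by 0.60 ± 0.11 (edgeR adjusted p = 6.1e-05), as 1 of 6, where 1.84% of all genes passed. In total RNA LHCA4 was at -0.26 ± 0.32, LHCA3 at -0.19 ± 0.32 and LHCA2 at -0.18 ± 0.31. In translational efficiency 6 of 6 were positive, against 52.3% of all genes, with LHCA4 at 0.85 ± 0.47, LHCA3 at 0.40 ± 0.47 and LHCA1 at 0.44 ± 0.56.

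A list of 14 nuclear genes was drawn up for factors of photosystem I assembly or of plastid transcript processing. Whether each of them acts on photosystem I was not tested. Of the 14, 13 could be tested in RPF, and 0 passed in any comparison without the block. At an unadjusted p under 0.05 edgeR listed 1 (PSA2) of 13 in RPF, where 3.35% of all tested genes were listed, and 0 in total RNA and translational efficiency. In RPF 8 of 13 were positive with a median of 0.079, against 49.6% of all genes. PSA2, a thylakoid lumen protein needed for photosystem I, had the smallest p, with a log2 change of 0.80 ± 0.28 (SE, edgeR adjusted p = 1.00). It rose with the block, by 0.80 ± 0.22 (edgeR adjusted p = 0.0284), as 1 of 13, where 1.84% of all genes passed. HCF101, which delivers iron-sulfur clusters, was at -0.53 ± 0.25 in RPF and -0.40 ± 0.23 in total RNA, and NFU2, another iron-sulfur carrier, was at 0.48 ± 0.27 and 0.22 ± 0.21. ATAB2, which acts in translation of photosystem mRNAs, was at -0.27 ± 0.20 in total RNA and 0.38 ± 0.29 in translational efficiency. In translational efficiency PSA2 was at 0.65 ± 0.36 and PSA3 at 0.40 ± 0.30. RBD1, a rubredoxin whose tie to photosystem I was not tested, was the most abundant of the 14. It was at 53.0 CPM per kb in RPF and 41.5 in total RNA as means over LL and HL.

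Of 9 genes for the electron donors and acceptors of photosystem I and for cyclic flow, FD1 was the exception. FD1, a leaf ferredoxin gene, rose in total RNA by 1.35 ± 0.22 on the log2 scale (SE, edgeR adjusted p = 0.0399), as 1 of 9. Of all 15705 genes tested, 37 (0.236%) passed there. The RPF estimate of FD1 was 1.15 ± 0.27 (edgeR adjusted p = 0.235). At an unadjusted p under 0.05 edgeR listed 1 of 9 in RPF and 1 of 9 in total RNA, FD1 in both. The shares of all tested genes were 3.35% and 2.36%. With the block FD1 rose in both, by 1.37 ± 0.16 in total RNA (edgeR adjusted p = 0.00027) and by 1.16 ± 0.21 in RPF (edgeR adjusted p = 1.7e-05). It was 1 of 9 in each, where 0.828% of all genes passed in total RNA and 1.84% in RPF. In RPF 6 of 9 were positive with a median of 0.020, against 49.6% of all genes. PGRL1B, a cyclic flow gene, was at -0.57 ± 0.36 and the plastocyanin gene PETE2 at 0.18 ± 0.30. In total RNA PGR5, another cyclic flow gene, was at 0.48 ± 0.31 and the ferredoxin reductase gene FNR1 at -0.20 ± 0.29. In translational efficiency 0 of 9 passed, and 0 had an unadjusted p under 0.05 by edgeR, with PGRL1B at -0.61 ± 0.42, PGR5 at -0.33 ± 0.50 and FD1 at -0.21 ± 0.34. PETE2 was the most abundant of the 9, at 952 CPM per kb in RPF and 921 in total RNA as means over LL and HL.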

How the data were processed

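The authors deposited raw counts per gene, 1 table per library, made with featureCounts 1.5.0-p1 with strand setting 1 for RPF and 2 for total RNA, per the file headers. The submitters' processing notes name FastQC 0.11.5, cutadapt 1.9.1, Bowtie2 2.2.9, Subread 1.4.5 and TAIR10. Each gene was counted over its whole span, introns included. Gene types and names came from RefSeq (28009 genes matched by locus tag, 123 plastid genes by identical coordinates, 5 by 1 shared end, ycf3 among them).

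Protein-coding genes were fitted together after filterByExpr and TMM with edgeR 4.0.16 (R 4.3.3), by its quasi-likelihood test, with Benjamini-Hochberg adjustment over all genes tested and a threshold of 0.05. CPM are counts divided by the TMM-scaled library size; levels per kb divide by the counted span. For translational efficiency, TMM factors were computed within each kind. DESeq2 1.42.0, limma-voom (limma 3.58.1), other scalings, filters, the replicate block and left-out libraries were alternatives. Scripts were written in R and in Python 3.11.15, with pandas 2.3.3, scipy 1.17.1, numpy 2.4.6 and matplotlib 3.10.9. Only the edgeR fit without the block was tested on simulated data.

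The LL and the HL library with the same number deviated together from their group means across genes (correlations of 0.47, 0.43 and 0.29 in RPF and 0.56, 0.64 and 0.48 in total RNA), and the labels number the replicates, so the numbers were taken as pairs in the block. No replicates were duplicates: chi-square per degree of freedom between them was 12.5 to 573. Named genes were the 7 genes, the 3 smallest p and the most abundant gene of each list, the 3 genes most like psaA, psaB and psaC, and psbA, which was added after its values were seen. The 7 genes and the lists, written from textbook knowledge, were chosen with earlier results of these data known.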

Additional observations from a re-analysis of the deposited data

How the results depend on the processing

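None of the 7 genes passed in RPF under 18 alternatives, in total RNA under 18 or in translational efficiency under 30, and the lowest adjusted p was 0.395, 0.576 and 0.907. The replicate block changed no call of the 7 genes, and it turned psaJ to 0.095 in total RNA (0.088 by DESeq2) and to -0.0065 in translational efficiency. For the psaA share, where pairing cannot move the difference of 0.051 percentage points in RPF or -0.045 in total RNA, the exact sign-flip p over 3 pairs was 1 and 0.75 (smallest possible 0.25). Plastid factors turned psaA, psaB and psaC to 0.12, 0.12 and 0.13 in RPF, psaC, psaI and ycf3 to -0.0049, -0.26 and -0.068 in total RNA, and psaC, psaI and ycf3 to 0.29, 0.57 and 0.13 in translational efficiency. Without turning their signs, they moved psaA and psaB to -0.77 and -0.78 in total RNA and to 1.03 and 1.02 in translational efficiency, and psaJ to -0.59 and 0.90. Leaving out number 1, without and with the block, gave -0.13 and -0.13 for psaI in RPF. In total RNA it gave -0.052 and -0.096 for psaC, 0.14 and 0.23 for psaJ, -0.27 and -0.30 for ycf3, and -0.38 and -0.39 for ycf4. In translational efficiency it gave -0.071 and -0.17 for psaJ and 0.21 and 0.18 for ycf4. The summed RPF share differed by -6.49 percentage points, and by -1.23 without psbA in the denominator, which by construction leaves out the gene that grew. The cause of the other sign changes was not tested.

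Leaving out each library in turn moved the RPF log2 changes over -0.098 to 0.045 for psaA, -0.14 to 0.024 for psaB, -0.23 to 0.18 for psaC, -0.080 to 0.17 for psaI, -0.082 to 0.26 for psaJ and -0.50 to 0.010 for ycf4. In total RNA the ranges were -0.045 to 0.33 for psaC, -0.23 to 0.89 for psaI, -0.88 to 0.96 for psaJ, -0.22 to 0.18 for ycf3 and -0.058 to 0.56 for ycf4. In translational efficiency they were -0.39 to 0.034 for psaC, -0.92 to 0.29 for psaI and -1.02 to 1.09 for psaJ. The difference in psaA share ran from -0.72 to 0.71 points in RPF and from -1.02 to 1.05 in total RNA. The 95% intervals of psaA reached from -0.57 to 0.49 in RPF without the block and from -0.23 to 0.15 with it. In total RNA they reached from -1.54 to 0.65 and from -1.46 to 0.31. All of these intervals include 0, and a true change anywhere inside them is compatible with the data.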
